A study of Mus musculus with 36 samples.

Results

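The 6 genes described here, Mpo, Elane, Prtn3, Ctsg, Ms4a3 and Fcnb, are made mainly by the granulocyte and monocyte precursors that fill the first granules of neutrophils. They were chosen by name, as the rows whose NCBI gene number carries these mouse symbols, and all 6 were found among the 17697 rows of the single-end table and the 19001 rows of the paired-end table. The series sequenced total RNA of liver, spleen and thymus of mice whose p53 is wild type (wt) and of mice whose p53 lacks its C-terminus (d24). Each of the 12 groups has 3 libraries. In the paired-end table wt tissues without treatment stand beside wt tissues after X-rays (2 Gy, 3 h per the sample characteristics), and the single-end table sets d24 tissues beside wt tissues, all titled xray.

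The labels of the single-end libraries disagree. The titles, used here for the groups, give X-rays to all of them. The characteristics instead give control to d24 liver, d24 thymus and wt spleen, X-rays to d24 spleen, wt liver and wt thymus, and the cell type WT to all 9 libraries titled d24. Read that way, genotype and treatment cannot be told apart in any d24 comparison below. Cdkn1a, a p53 target that X-rays raised in wt spleen of the paired-end table from 4.98 ± 1.29 to 157 ± 6.19 (SD, n = 3), had a signal of 373 ± 49.3 in d24 spleen and 7.40 ± 1.96 in wt spleen of the single-end table. In liver it was 277 ± 147 in d24 and 66.2 ± 70.0 in wt, and in thymus 38.0 ± 25.9 and 14.6 ± 2.90. The labels give no age, sex or strain and do not name the animals. The p-values measure the spread between these libraries, which may be technical in part. The tissue pieces are mixtures of cells, so that fewer precursors and less RNA per precursor cannot be told apart.

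Neutrophils build their granules in order. Primary (azurophil) granules are filled at the promyelocyte stage with myeloperoxidase and the serine proteases of the elastase family, which kill ingested microbes, and transcription of these genes then stops. Secondary granule proteins follow in later precursors, so mature neutrophils in blood and tissue carry the primary granule proteins with little of their mRNA. Mouse spleen keeps blood formation going through adult life, adult liver holds little of it, and the thymus is mostly T-cell precursors.

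Mpo encodes myeloperoxidase, the haem enzyme that turns hydrogen peroxide and chloride into hypochlorous acid. The gene lies on chromosome 11 of GRCm38, chr11:87793784-87804412 on the forward strand, and shares part of its span with the antisense gene Gm11505. Elane (neutrophil elastase) and Prtn3 (proteinase 3) are serine proteases at chr10:79886312-79888216 and chr10:79879667-79883174, both on the forward strand, with the start of Elane 3138 bases past the end of Prtn3. Ctsg (cathepsin G) is the third protease, at chr14:56099885-56102574 on the reverse strand, in a cluster with mast cell proteases and granzymes. Ms4a3, a membrane protein with 4 membrane-spanning stretches that marks granulocyte and monocyte precursors, lies at chr19:11629499-11640851 on the reverse strand. Fcnb (ficolin B), a lectin that binds sugars on microbes and starts the lectin pathway of complement, lies at chr2:28076479-28084910 on the reverse strand.

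The 6 promoters are shown because some of these genes are textbook targets of myeloid regulators, among them PU.1 (Spi1), C/EBP factors, Runx1 and Myb, whose own levels are given below. In RefSeq's GRCm38 sequence, the 250 bases before the start of each gene were searched on both strands. All 6 held GGAAGT, the core that Ets factors such as PU.1 bind, as did 19.7% of 32851 promoters of the same length. The letters were chosen after these promoters had been read, so the count over the 6 genes supports nothing. Each window below runs 5′ to 3′ on the gene's own strand, with GGAAGT in capitals.
Mpo, chr11:87793542-87793587: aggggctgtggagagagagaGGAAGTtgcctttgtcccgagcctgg
Elane, chr10:79886209-79886254: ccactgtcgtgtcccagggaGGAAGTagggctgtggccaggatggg
Prtn3, chr10:79879554-79879599: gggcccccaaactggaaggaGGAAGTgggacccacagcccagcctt
Ctsg, chr14:56102754-56102799, reverse strand: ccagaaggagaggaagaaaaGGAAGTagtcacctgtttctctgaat
Ms4a3, chr19:11640881-11640926, reverse strand: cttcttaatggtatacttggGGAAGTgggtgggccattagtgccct
Fcnb, chr2:28084955-28085000, reverse strand: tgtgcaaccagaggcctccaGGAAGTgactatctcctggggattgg

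The match began 222 bases before the start in Mpo, 83 in Elane, 93 in Prtn3, 205 in Ctsg and 55 in Ms4a3. In Fcnb it began 102 bases before the start, and a second match lay 187 bases before it. Other motifs were held by fewer of the 6. The Myb core AACNG was in 5 (74.2% of all promoters), the TATA letters TATAA in 4 (22.8%), the C/EBP letters TTNNGNAA in 2, Ms4a3 and Fcnb (36.8%), and the Runx core TGTGGT in 1, Ctsg (14.0%). The C/EBP and GGAAGT matches of Ms4a3 overlapped. A match describes the letters and not a bound site. The last 120 bases before the start of Elane, chr10:79886192-79886311, hold GGAAGT, a Myb core as AACGG, and a second one, on the other strand, read here as CTGTT, all in capitals.
Elane, 120 bases: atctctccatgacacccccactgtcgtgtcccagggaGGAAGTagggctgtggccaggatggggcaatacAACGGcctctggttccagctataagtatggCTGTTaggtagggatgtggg

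Values are normalised signal, the reads of a gene per 1000000 of an effective library size. The paired-end libraries held 44348579 to 81322683 reads and the single-end ones 20481048 to 38042710, and a single read was worth 0.00991 to 0.0377 and 0.0171 to 0.0828 units of signal. Levels from the 2 tables were normalised separately and were not tested against each other. Defining markers of the labelled tissues were present, with a summed signal of hepatocyte genes of at least 270696 in every liver library and of T cell genes of at least 3832 in every thymus library. B cell genes summed to 56.4 to 321 in d24 spleen and 470 to 603 in single-end wt spleen. Among the libraries, d24 thymus replicate 3 stood apart from the other thymus libraries of the single-end table, with a summed signal of hepatocyte genes of 1287, against 5.03 to 97.6 in the other 5, and of erythroid genes of 1423, against 92.1 to 206.

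In wt spleen (single-end libraries) Mpo was 191, 204 and 320 in replicates 1, 2 and 3. In d24 spleen it was 1.07, 0.311 and 0. No d24 library came near a wt library, and the ratio of the group means was 517 (wt 238 ± 70.8, d24 0.461 ± 0.551, SD, n = 3). The log2 difference, taken on log2(signal + 0.5) here and below, was -8.08 ± 0.45 (SE), with an adjusted p of 2.17e-06 (limma, Benjamini-Hochberg adjustment over all genes tested). The signal in d24 spleen came from 46 reads in all.

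The 3 proteases followed the same pattern in spleen. Elane was 50.0, 57.0 and 173 in wt and 1.51, 1.07 and 0 in d24, a difference of -6.09 ± 0.60 (adjusted p = 0.000256, limma). Prtn3 was 39.0, 44.0 and 222 in wt and 1.10, 1.38 and 0.571 in d24 (-5.63 ± 0.60, adjusted p = 0.00041). Of the 6 genes it was the only one with reads in every d24 spleen library. Ctsg was 23.3, 27.0 and 111 in wt and 1.42, 0.173 and 0 in d24 (-5.60 ± 0.67, adjusted p = 0.000977). The ratios of the group means were 109 for Elane, 99.9 for Prtn3 and 101 for Ctsg.

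The membrane protein and the lectin fell as well. Ms4a3 was 15.0, 19.9 and 113 in wt spleen and 1.19, 0 and 0 in d24 spleen (-5.46 ± 0.75, adjusted p = 0.00214, limma). It is the call that depends on the tool, with an adjusted p of 0.0525 by edgeR's quasi-likelihood test and 0.0840 by DESeq2 on the recovered reads. Fcnb was 26.2, 30.8 and 69.4 in wt and 1.22, 2.42 and 0 in d24 (-4.84 ± 0.63, adjusted p = 0.00166, limma), with the smallest ratio of means of the 6, 34.8.

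All 6 genes were lower in d24 spleen with no overlap between the groups. They passed the filter, a signal of 1 in 3 of the 6 libraries, through wt spleen, since none reached it in more than 2 d24 libraries, so the count describes the 6 and supports nothing further. In this comparison 1.24% of the 13554 genes tested were called lower, 1.04% were called higher and 10.6% were lower with no overlap. The median difference was -5.61 for the 6 and -0.05 for all genes tested. Replicate 3 of wt spleen was the highest library for each gene. The gap was small for Mpo and wide for Ms4a3 and Prtn3, so that Mpo made 55.5% and 53.3% of the summed signal in replicates 1 and 2 and 31.7% in replicate 3. Without wt replicate 3 the differences were -7.85 for Mpo, -5.53 for Elane, -4.83 for Prtn3, -4.89 for Ctsg, -4.57 for Ms4a3 and -4.41 for Fcnb. Without d24 replicate 3 they were -7.69, -5.49, -5.40, -5.20, -5.17 and -4.12 in the same order, without d24 replicate 1 -8.51, -6.49, -5.69, -6.17, -6.04 and -5.01, and all 6 stayed past the threshold whichever library was left out.

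Per length of exon, the order of the 6 in wt spleen changed between libraries. Mpo, with 2904 exonic bases, gave 65.9 and 70.3 units of signal per kilobase in replicates 1 and 2, above Elane (50.8 and 57.9) and Prtn3 (38.1 and 42.9). In replicate 3 Prtn3 was first with 217 per kilobase, then Elane with 175, and Ms4a3 (112), Ctsg (111) and Mpo (110) were close together. Fcnb was at 19.9, 23.3 and 52.7 per kilobase, below Mpo, Elane, Prtn3 and Ctsg in each library. Averages over the group (82.1 ± 24.4 for Mpo, 94.7 ± 70.0 for Elane and 99.2 ± 102 for Prtn3, SD, n = 3) do not separate these 3 genes beyond their spread.

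**Figure D1:**
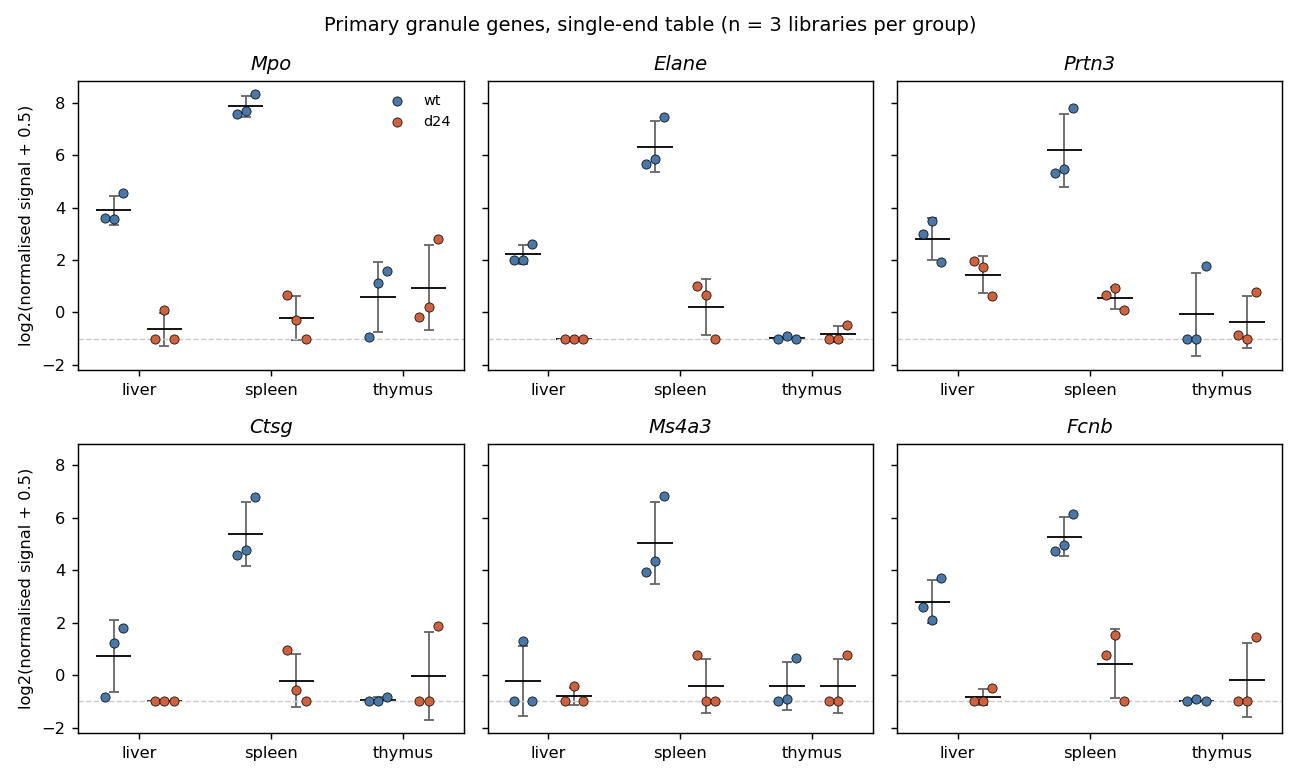
Levels of the 6 genes in each single-end library, as log2(normalised signal + 0.5) on the vertical axis, by tissue, with wt in blue and d24 in orange. Points are libraries, black lines means, bars SD (n = 3) and the dashed line a signal of 0. In spleen every wt point lies above every d24 point in all 6 panels.

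In liver the levels were far lower and the same 2 groups separated for some of the genes. Mpo was 11.6, 11.4 and 22.7 in wt liver and 0, 0.561 and 0 in d24 liver, a ratio of means of 81.5 and a difference of -4.54 ± 0.57 (adjusted p = 0.0132, limma). Fcnb was 5.58, 3.81 and 12.5 in wt and 0, 0 and 0.211 in d24 (-3.64 ± 0.64, adjusted p = 0.0428). The 0.211 rests on 3 reads. Both calls were lost when any 1 wt liver library was left out (adjusted p from 0.051 to 0.088 for Mpo and from 0.166 to 0.180 for Fcnb), and that of Fcnb also without d24 liver replicate 1 (0.0833) or replicate 2 (0.101). Irradiated wt liver of the paired-end table, normalised separately, held far less, with means of 0.728 for Mpo and 0.196 for Fcnb. Single-end means were 15.2 and 7.31 in wt liver and 0.187 and 0.0702 in d24 liver. Why the 2 irradiated wt liver groups differ was not tested.

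Elane was 3.55, 3.48 and 5.67 in wt liver and without a read in all 3 d24 libraries. It was at least 60.3-fold lower against the limit that 3 reads over the d24 group allow (a mean signal of 0.0701, counting error only). Its difference of -3.21 ± 0.62 had an adjusted p of 0.0544 (limma) and passed without d24 replicate 3 (0.0439). Ctsg, at 0.0657, 1.82 and 2.95 in wt and without reads in d24, was at least 23.0-fold lower, but did not reach a signal of 1 in 3 libraries and was not tested. Neither was Ms4a3, which had reads in 1 of 3 libraries of each genotype.

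Prtn3 behaved differently in liver. It was 7.35, 10.8 and 3.26 in wt and 3.43, 2.80 and 1.05 in d24, with overlapping groups (-1.35 ± 0.58, adjusted p = 0.361, limma). In d24 liver it made 77.8% to 100% of the summed signal of the 6 genes, of which 12 of the 18 values were at 0. Of all 6 genes 2 were called lower in d24 liver, where 0.248% of the 13695 genes tested were, and 4 passed the filter on low values. Mpo, Elane and Fcnb passed it through their wt libraries alone, and these 3 did not overlap between the groups, where 11.5% of genes tested were lower with no overlap.

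In thymus the 6 genes were low in both genotypes, with 9 of 18 values at 0 in each, and most of their reads came from replicate 3 of each genotype. In wt replicate 3 Prtn3 was 2.89 and Ms4a3 1.06, while neither passed 0.0309 in the other 2 wt libraries. Mpo, the only one tested, was 0.0272, 1.67 and 2.51 in wt and 0.392, 0.642 and 6.44 in d24 (0.35 ± 0.94, adjusted p = 0.924, limma). Its sign turned when d24 replicate 3 (-0.58) or wt replicate 1 (-0.41) was left out. The call rate was low for all genes there, 0.00724%, or 1 of 13818. The high d24 library is the one with hepatocyte and erythroid signal described above. It also held Ctsg at 3.19, Fcnb at 2.21, Prtn3 at 1.23 and Ms4a3 at 1.20, while the other 2 d24 thymus libraries had no reads of Elane, Ctsg, Ms4a3 or Fcnb. In that library the summed signal of 13 secondary granule and neutrophil genes was 389, against 44.1 and 87.7 in the other 2. The part of other tissue in these values was not tested.

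The difference between d24 and wt depended on the tissue for all 6 genes (limma F test of the interaction over 18 libraries), where 0.988% of the 16092 genes tested did. The adjusted p was 0.0011 for Mpo and for Elane, 0.0125 for Fcnb, 0.0149 for Ctsg, 0.0247 for Ms4a3 and 0.0336 for Prtn3. It was spleen that stood apart from thymus. The d24 difference in spleen was lower than that in thymus by between 5.35 (Prtn3, adjusted p = 0.0266) and 8.43 (Mpo, adjusted p = 0.000515) on the log2 scale. All 6 passed, as did 105 of the 16092 genes tested. In wt thymus the genes were near the floor, with 1 read of Elane, 1 of Fcnb and 2 of Ctsg over the group. A fall as large as that in spleen could not show there for any of the 6. These calls therefore cannot show that thymus was left unchanged in d24. All 6 genes are high in wt spleen, so the count of 6 describes these genes and supports nothing further. Between spleen and liver none of the 6 passed, with adjusted p from 0.0593 (Ms4a3) to 0.822 (Fcnb), and at unadjusted p under 0.05 all but Fcnb did. Over all genes 81 passed the adjusted threshold there. Between thymus and liver Mpo passed (adjusted p = 0.0490), where 48 of all genes did. The count over all tissues was 1 by edgeR's test and 2 by DESeq2.

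**Figure D2:**
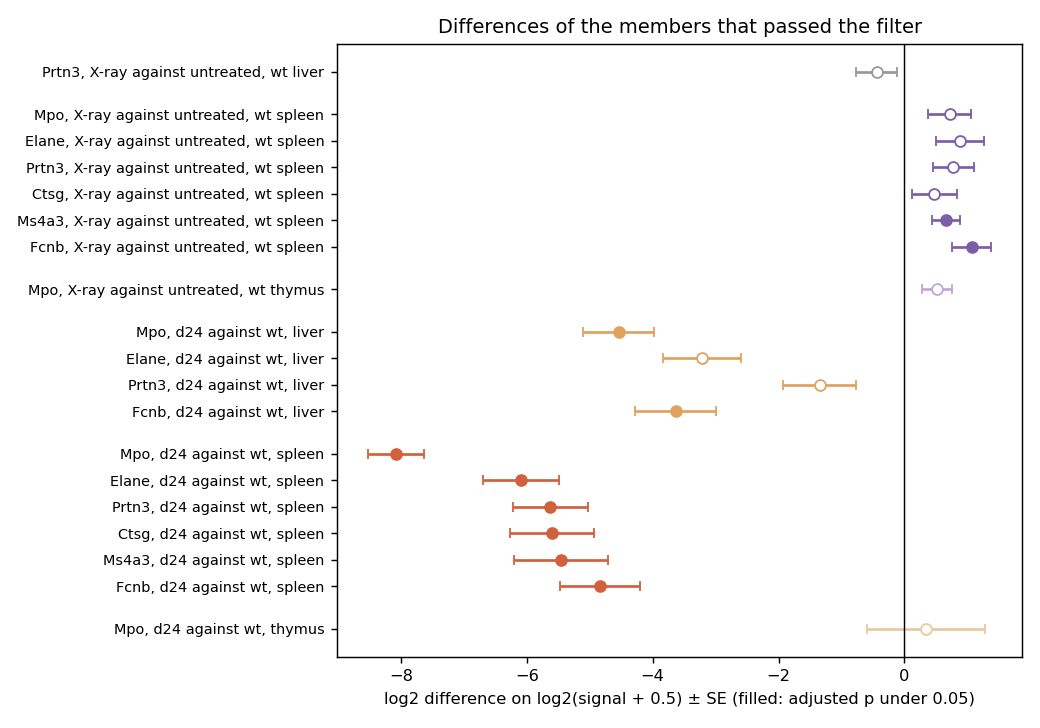
Log2 difference ± SE (horizontal axis) of each of the 6 genes that passed the filter, by comparison (n = 3 libraries a group). Filled circles passed an adjusted p of 0.05. The 6 differences in d24 spleen lie between -8.08 and -4.84, and those after X-rays in wt spleen between 0.48 and 1.07.

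In irradiated wt spleen the 6 genes had differences from untreated spleen of 0.48 to 1.07, and 2 of them passed the test. In the paired-end table Mpo was 11.4, 24.7 and 16.2 in untreated spleen and 32.5, 39.7 and 16.3 after X-rays. The groups overlapped, and the difference of 0.72 ± 0.34 had an adjusted p of 0.122 (limma). Same-numbered libraries deviated together here (correlations 0.177, 0.241 and 0.191), but the labels do not say what the numbers share, so a pairing is not settled. With the replicate number as a block Mpo passed (0.72 ± 0.24, adjusted p = 0.0436, limma).

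Fcnb and Ms4a3 were called higher. Fcnb was 2.16, 4.83 and 3.83 before and 10.7, 9.08 and 4.85 after X-rays (1.07 ± 0.31, adjusted p = 0.0235, limma), and the lowest irradiated library was just above the highest untreated one. Ms4a3 was 1.76, 2.06 and 1.82 against 4.73, 3.35 and 2.15 (0.66 ± 0.23, adjusted p = 0.0425). Those 2 of 6 compare with 19.5% of the 13389 genes tested that were called higher and 24.5% that were higher with no overlap. The call of Ms4a3 was lost in 5 of the 6 fits that left out 1 library, all but that without X-ray replicate 3. That of Fcnb was lost without untreated replicate 1 (0.0783) or 3 (0.0529).

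The proteases were not called. Elane was 2.92, 7.27 and 6.98 before and 15.0, 12.4 and 5.80 after X-rays (0.89 ± 0.38, adjusted p = 0.0921, limma). Prtn3 was 2.79, 4.84 and 5.12 before and 10.7, 9.11 and 4.14 after (0.78 ± 0.33, adjusted p = 0.0847). Ctsg was 1.50, 3.32 and 2.87 before and 5.55, 4.45 and 1.81 after (0.48 ± 0.36, adjusted p = 0.312). X-ray replicate 3 was the lowest irradiated library for each of the 6 genes. Without it Mpo (1.09, adjusted p = 0.0320), Elane (1.27, 0.0339) and Prtn3 (1.17, 0.0148) were called too, making 5 of 6. In that fit 1669 of the 13389 genes tested were called higher. The library left out is the lowest for all 6, so this count describes the 6 and supports nothing further.

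The summed signal of the 6 was 22.5, 47.1 and 36.8 in untreated spleen and 79.2, 78.0 and 35.1 after X-rays. Hepatocyte genes were also higher in irradiated spleen, with a summed signal of 91.5, 499 and 426 against 41.6 to 59.5 in untreated spleen, and 5 of 5 tested were called. Among the X-ray libraries, the hepatocyte signal was lowest in replicate 1 and highest in replicate 2. The sum of the 6 genes was lowest in replicate 3. The part of hepatocyte genes in the result was not tested.

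**Figure D3:**
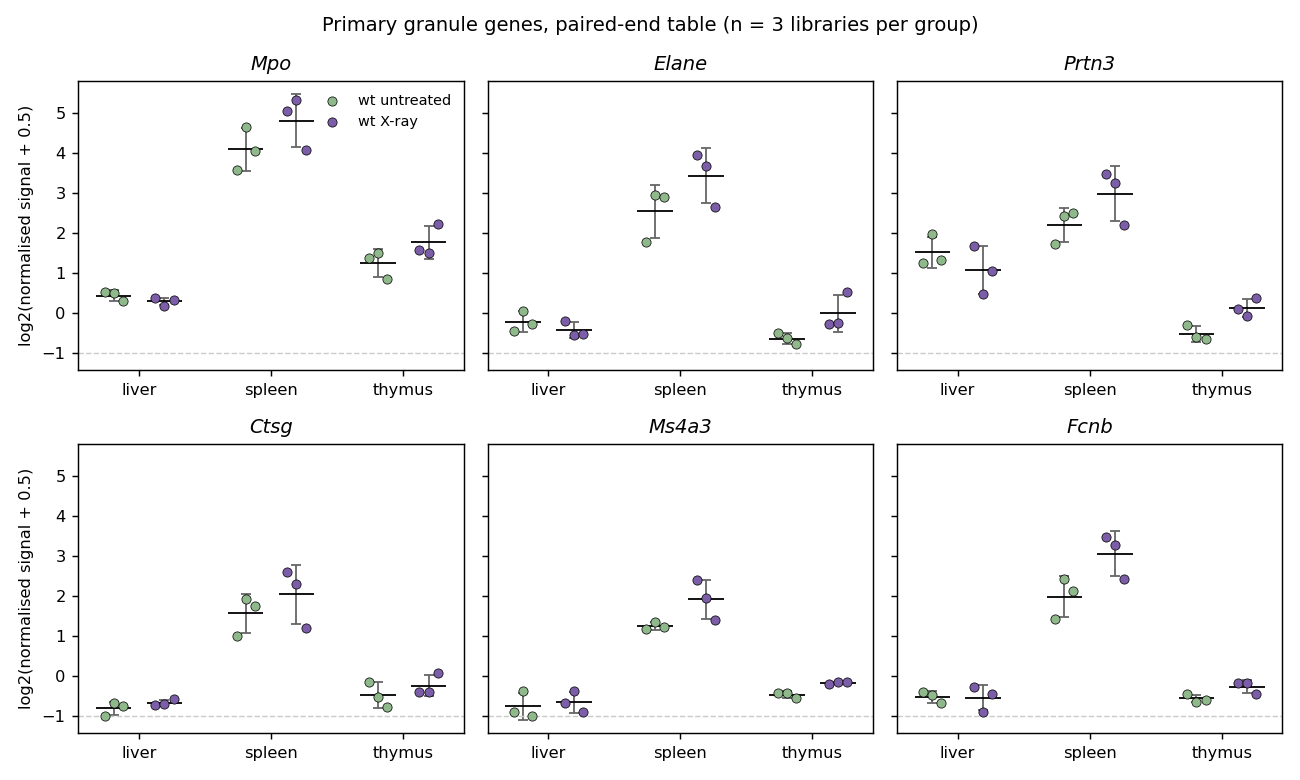
Levels of the 6 genes in each paired-end library, as log2(normalised signal + 0.5) on the vertical axis, by tissue, with untreated wt in green and irradiated wt in purple. Points are libraries, black lines means, bars SD (n = 3) and the dashed line a signal of 0. In spleen 2 irradiated libraries lie above all untreated ones for each gene and the third lies among or beside them.

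In liver and thymus of the paired-end table the genes were low. Liver Mpo was 0.945, 0.907 and 0.727 without treatment and 0.792, 0.641 and 0.751 after X-rays, and was under the filter. Liver Prtn3, the only one tested, was 1.89, 3.42 and 2.00 before and 2.72, 0.904 and 1.57 after (-0.44 ± 0.32, adjusted p = 0.41, limma), where 0.242% of the genes tested were called in either direction. Thymus Mpo was 2.12, 2.35 and 1.30 before and 2.47, 2.32 and 4.21 after (0.52 ± 0.24, adjusted p = 0.149). Thymus Elane, at 0.206, 0.149 and 0.0811 before and 0.321, 0.336 and 0.935 after, did not overlap, and neither did Prtn3, Ms4a3 and Fcnb, all higher after X-rays. All 4 stayed below a signal of 1 and were not tested. Of the genes tested in thymus, 18.6% were higher with no overlap and 9.77% were called higher. The X-ray difference did not pass the interaction with tissue for any of the 6 genes by limma, where 30.5% of all genes did. The smallest adjusted p values were 0.0640 for Fcnb and 0.0855 for Prtn3, both had an unadjusted p under 0.05, and DESeq2 called 2 and edgeR's test 0. Taken by pairs of tissues, 1 of the 6 passed, Fcnb. Its X-ray difference in spleen was above that in liver by 1.09 ± 0.36 on the log2 scale (adjusted p = 0.0349, limma). For that pair 4126 of the 15654 genes tested passed. Liver Fcnb was near the floor, with means of 0.198 without treatment and 0.196 after X-rays (19 and 21 reads). With 0.5 added before the log2, a rise as large as that in spleen would show there only in part. The call therefore cannot show that Fcnb responded differently in liver.

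In the paired-end table Prtn3 and its neighbour Elane were spread differently over the tissues, given here as a description with no test. In paired-end liver Prtn3 made 42.1% to 62.4% of the summed signal of the 6 genes, against 10.3% to 13.9% in spleen, and the ratio of Prtn3 to Mpo was 1.41 to 3.77 in liver and 0.196 to 0.330 in spleen, with no overlap over 6 libraries of each. The single-end wt libraries did not separate in this way. There Prtn3 made 26.2%, 32.3% and 6.91% of the sum in liver and 11.3%, 11.5% and 22.0% in spleen, and its ratio to Mpo was 0.636, 0.942 and 0.143 in liver and 0.204, 0.215 and 0.694 in spleen. Per kilobase in the paired-end table, untreated liver held 2.38 ± 0.831 units of Prtn3 and 0.374 ± 0.164 of Elane (SD, n = 3), which do not overlap, and untreated spleen 4.15 ± 1.24 and 5.82 ± 2.47, which do. Mpo was at 0.296 ± 0.0401 per kilobase in untreated liver and 6.0 ± 2.33 in untreated spleen. Over the 18 paired-end libraries Prtn3 had the lowest correlation of log2 signal with the mean of the other 5 genes, Pearson's r = 0.78, and Elane the highest, 0.995. In the single-end table the lowest was Ms4a3, 0.90, and the highest Elane, 0.97. These correlations run over tissues that fall apart in level and are descriptions.

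**Figure D4:**
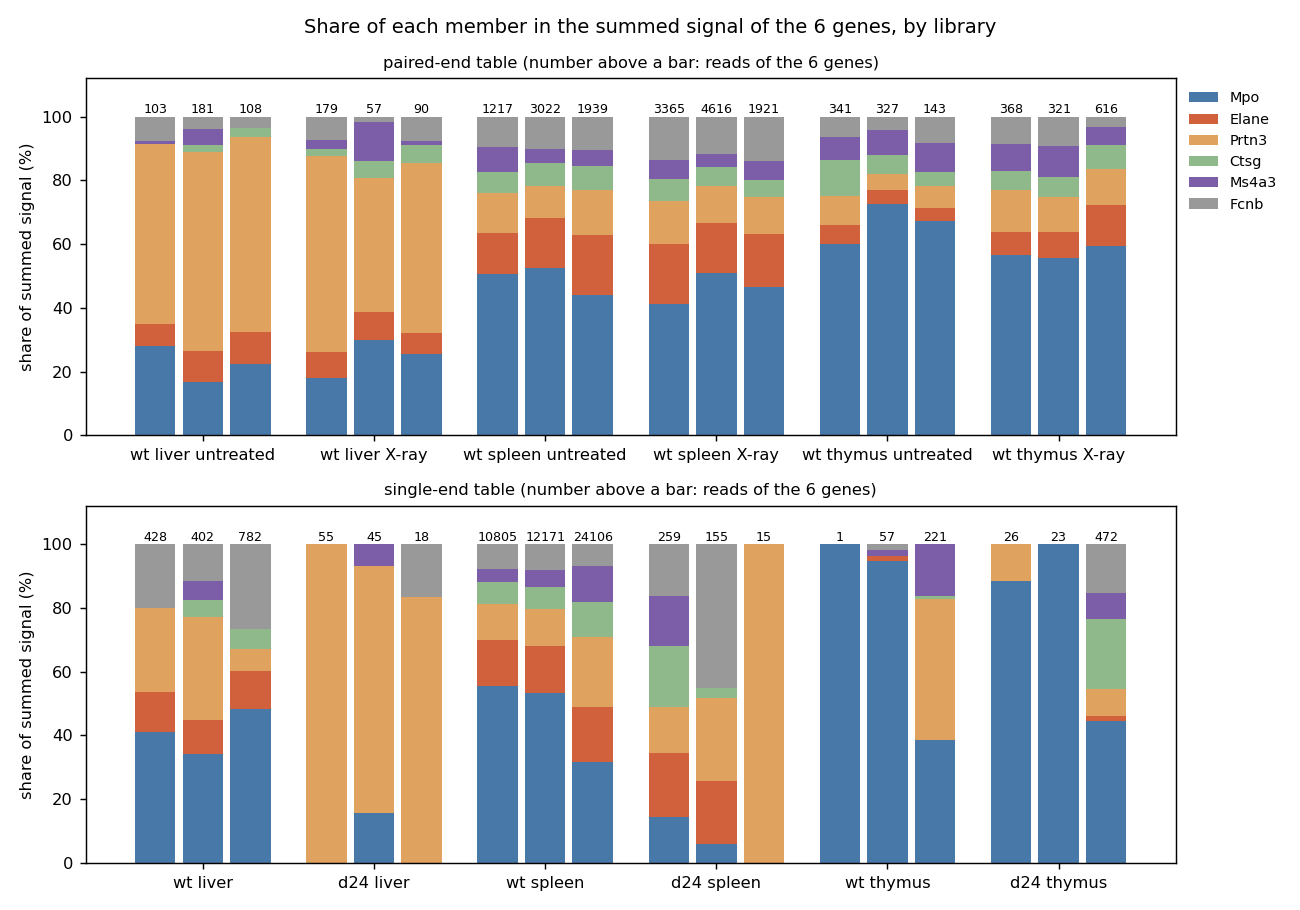
Share of each gene in the summed signal of the 6 (vertical axis, %) in each library of the paired-end table (top) and single-end table (bottom), with the number of reads behind it above each bar. Prtn3 (light orange) makes 42.1% to 62.4% in paired-end liver and 10.3% to 13.9% in paired-end spleen.

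Among other genes of granule formation, fewer were called in d24 spleen. Of 6 genes tested that make, sort or accompany the granule proteins, 2 were lower, Lyz2 (lysozyme, 671 ± 390 in wt and 125 ± 76.9 in d24, -2.43 ± 0.44, adjusted p = 0.0128, limma) and Prss57, a further protease of primary granules (6.09 ± 5.53 in wt and 0.0193 ± 0.0334 in d24, -3.35 ± 0.70, adjusted p = 0.0265). The ratio of means of Prss57 was 315, above that of each of the 6 but Mpo, and rests on 2 reads in d24. Ctsc, the peptidase that activates the granule proteases, was not called (0.31). Of 6 subunits of the phagocyte oxidase, which supplies the hydrogen peroxide used by myeloperoxidase, Ncf1 alone was lower (-2.78 ± 0.52, adjusted p = 0.0157). Of 3 protease inhibitors tested, Serpinb1a, which blocks elastase and cathepsin G inside cells, was lower (-1.81 ± 0.36, adjusted p = 0.0233) and the secreted inhibitor Serpina3n was higher (4.45 ± 0.69, adjusted p = 0.00491). None of 3 lectin pathway genes tested was called, among them Fcna, the ficolin of macrophages (110 ± 25.3 in d24, 125 ± 37.2 in wt, adjusted p = 0.861).

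Of 9 myeloid transcription factors, 1 was called in d24 spleen. Cebpe, which drives the step to secondary granules, was 21.3 ± 12.2 in wt and 2.47 ± 0.554 in d24 (-2.75 ± 0.47, adjusted p = 0.00891, limma). Differences were -0.94 for Spi1, -0.31 for Cebpa, -0.21 for Runx1, -1.09 for Myb and -2.45 for Gfi1, none past the threshold. None of 8 receptors of progenitors and cytokines was called. The smallest p there was that of Csf2rb (0.94 ± 0.27, adjusted p = 0.117), and Kit, the stem cell factor receptor, differed by -0.73.

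Markers of other blood cells differed between the spleens as well. In d24 spleen 7 of 13 secondary granule and neutrophil genes were lower and none higher, among them Camp (cathelicidin, -4.58), Ngp (-3.86) and S100a9 (-3.47), and their summed signal was 148 to 1173 in d24 and 3033 to 8642 in wt. Of the eosinophil genes 6 of 9 were lower (Prg2 and Ear6, both -4.80), of the megakaryocyte genes 6 of 6 (Ppbp -4.82, Pf4 -4.53) and of the monocyte genes 3 of 5 (F13a1 -3.02, Ccr2 -3.53, Ly6c2 -3.43). Mast cell and basophil genes split, with the basophil proteases Mcpt8 (-4.30) and Prss34 (-4.18) lower and Tpsb2 (5.97), Cma1 (4.23), Fcer1a (3.67) and Cpa3 (2.95) higher. None of 11 erythroid, 8 macrophage or 10 G2/M genes was called, and 1 of 6 B cell genes was, Cd79b (-2.08). The p53 targets were higher, 7 of 10, with a summed signal of 1107 to 1513 in d24 against 247 to 287 in wt. The part of these cell types, and of a p53 response, in the levels of the 6 genes was not tested.

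In d24 liver the neutrophil and eosinophil lists held the most calls. Of 13 secondary granule and neutrophil genes 5 were lower (Camp -5.34, S100a8 -4.06, S100a9 -3.74) and of 7 eosinophil genes 4 (Ear1 -4.80, Prg2 -4.73, Prg3 -3.70). Myb, a factor of blood progenitors, was 11.4 ± 1.90 in wt liver and 0.878 ± 1.02 in d24 liver (-3.39 ± 0.63, adjusted p = 0.0498, limma). One gene each was lower among 10 erythroid (Alas2, -2.14), 4 megakaryocyte (Ppbp, -3.85) and 6 T cell genes (Rag1, -3.85), and 1 of 5 B cell genes was lower, with a median of -2.56 over the 5. No p53 target of 10 was called there, nor any gene of these lists in d24 thymus.

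After X-rays in wt spleen 40% of all genes tested were called in either direction and 19.5% were called higher. There 8 of 13 secondary granule and neutrophil genes were higher (Chil3 1.29, Lcn2 1.12, Cxcr2 0.54) and 4 of 6 oxidase subunits (Cyba 1.18, Ncf4 0.82, Ncf1 0.72). Of 9 transcription factors 7 were higher and 1, Myb, was lower (-1.06 ± 0.16, adjusted p = 0.00154, limma), with Cebpb (1.34) and Cebpd (1.31) the highest among those named by p. Of 8 receptors 6 were higher (Csf2ra 0.95, Cd34 0.56) and Kit was lower (-1.14). Of 8 protease inhibitors 6 were higher, Slpi, an inhibitor of elastase (0.87), and the 5 Serpina1 genes, near-identical copies made by hepatocytes (1.56 to 2.18), and Serpinb1a was lower (-0.62). Macrophage genes (8 of 8, median 0.88), megakaryocyte genes (5 of 6, median 0.55) and lectin pathway genes (3 of 3, median 0.67) were higher as well. The part of these cell types in the levels of the 6 was not tested. In irradiated wt thymus 8 of 10 secondary granule and neutrophil genes tested were higher (Chil3 1.12, Camp 1.09, Cd177 0.85), while Prss57 (-0.54) and Gfi1 (-0.63) were lower. In irradiated wt liver none of the granule, oxidase, factor or receptor lists held a called gene.

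**Figure D5:**
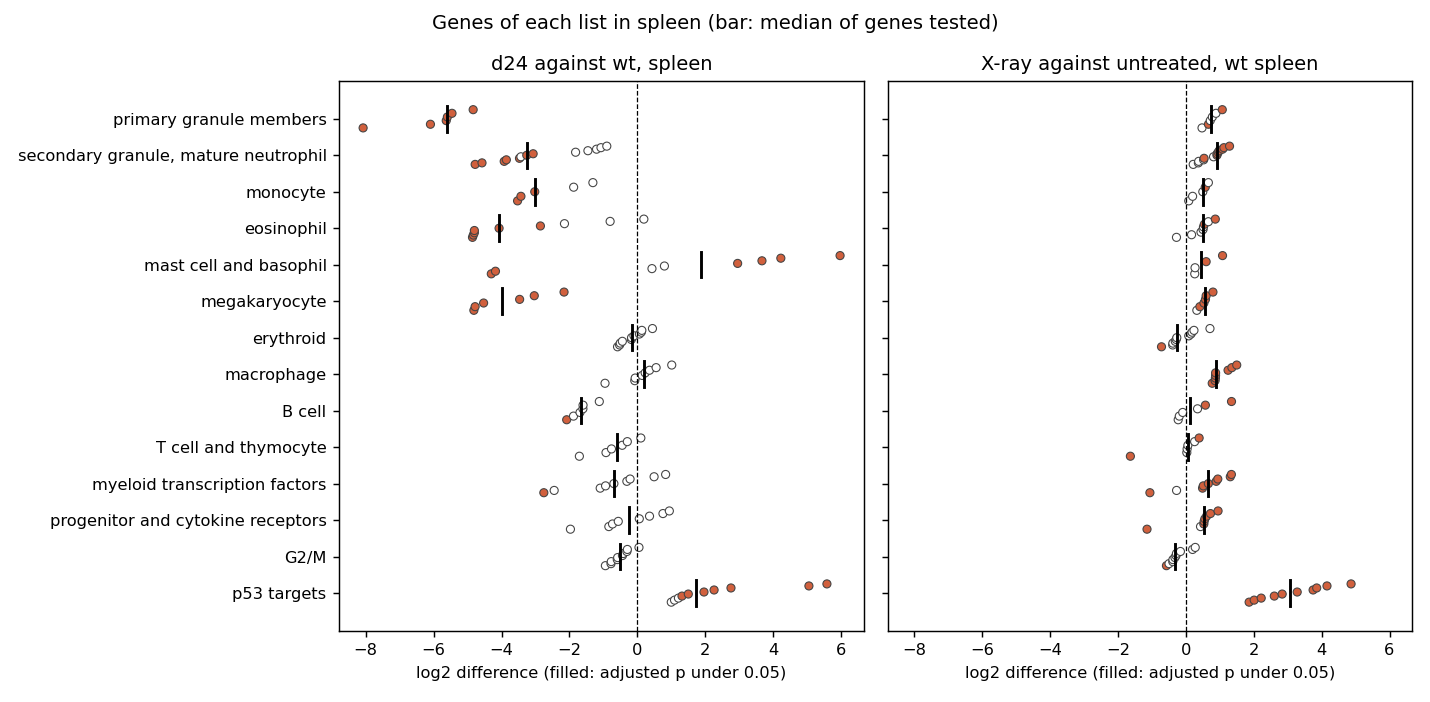
Log2 differences (horizontal axis) of the genes of 14 lists in d24 against wt spleen (left) and irradiated against untreated wt spleen (right). Each circle is a gene tested, filled where the adjusted p was under 0.05, and black bars are medians. The 6 granule genes have a median of -5.61 on the left and 0.75 on the right.

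Genes next to the 6 did not share one direction. In d24 spleen Epx, the eosinophil peroxidase beyond Lpo beside Mpo, was lower (-4.83 ± 0.54, adjusted p = 0.000573, limma), as were Mcpt8, next to Ctsg, and Prss57 near Prtn3. Cma1, a chymase of mast cells in the cluster that holds Ctsg, was higher (4.23 ± 0.64, adjusted p = 0.00414). Mks1 (-0.37), Med16 (0.54), Gzmb (-0.20), Ms4a1 (-1.60) and Ms4a6c (-1.31) were not called.

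The genes whose log2 signal over the 18 libraries of a table was most like the mean of the 6 (Pearson's r, mean signal of at least 1) differed between the tables. In the paired-end table they were Trem3, Gm10244, Cadm4, Cnn1 (each 0.98) and Gm16867 (0.97). In the single-end table they were Mpig6b (0.97), Gp1bb (0.96), Mcpt8 (0.95), Cstdc6 (0.95) and Mmrn1 (0.94). Gp1bb was also at rank 8 of 14439 genes in the paired-end table and Trem3 at rank 15 of 14640 in the single-end table, picked out after their values were seen. Spleen stands above the other tissues in these measures, so genes that are highest in spleen score high.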

How the data were processed

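Total RNA libraries (TruSeq Stranded, per the labels' protocols) of mouse liver, spleen and thymus were compared as 12 groups of 3. The deposited values are normalised signal, reads per gene per 1000000 of an effective library size, and the submitters' processing notes name edgeR and mm10. Neither the aligner nor the counter, nor whether strand was used, is given in the sources used here. Reads of Mpo and its antisense partner cannot be told apart. Column steps gave whole reads for 100% of values (tolerance 0.01 of a step), so the unit differs from the plain CPM that the design assumed only by a factor per library. Of the paired-end columns, 18 match no library and were not used. RefSeq symbols matched 97.1% and 96.7% of rows. The test was limma 3.58.1 (R 4.3.3, eBayes with trend) on log2(signal + 0.5), for genes that reached a signal of 1 in 3 or more of the libraries compared, with no covariate, Benjamini-Hochberg adjustment over all genes and a threshold of 0.05. Fold changes on this scale understate the change of low genes. Recovered reads were tested with edgeR 4.0.16 and DESeq2 1.42.0. Code was tested on simulated data. Same-numbered wt spleen libraries of the paired-end table deviated together (correlations 0.177, 0.241 and 0.191); the labels do not say what the numbers share. No 2 libraries of a group were alike within counting noise. Named genes are the 6, up to 3 called genes of each list with the smallest p (or 2 if none was called), the neighbours, and the 5 most alike in pattern per table; others were picked after their values were seen. Some genes the rule names are not reported here. The 6 genes, the lists and the motifs were chosen with earlier results of these data known. No protein sequences were used here.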

Additional observations from a re-analysis of the deposited data

Results flagged for a closer look

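The difference between d24 and wt changed with tissue, by a test of the interaction itself over 18 libraries (limma F test, adjusted over all genes), for Mpo (adjusted p = 0.0011, F = 33.6), Elane (0.0011, F = 34.1), Fcnb (0.0125, F = 18.5), Ctsg (0.0149, F = 17.2), Ms4a3 (0.0247, F = 14.5) and Prtn3 (0.0336, F = 13.4). The log2 difference of Mpo was -8.08 in spleen, -4.54 in liver and 0.35 in thymus. The number of the 6 genes that passed was 4 to 6 when single libraries were left out. It was lowest, 4, without d24 spleen replicate 2 or 3, wt spleen replicate 3, or wt thymus replicate 1 or 2. The thymus side rests on few reads, 1 to 472 a library for the 6 genes together. A fall as large as that in spleen could not show from the levels of wt thymus, so the count describes the 6 and supports nothing further.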

How the results depend on the processing

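Of 296 single-gene values under other settings, 260 kept their direction and their side of the threshold, 22 lost a call, 12 gained one and 2 turned sign, both of them Mpo in d24 thymus (-0.41 and -0.58 with 1 library left out, range -0.58 to 0.90). In d24 spleen the 6 calls were 6 under every limma setting and 5 with edgeR or DESeq2. In d24 liver the 2 calls became 1 with a pseudocount of 0.1, with a mean signal of at least 5 and with the replicate block, 0 with edgeR and 0 to 3 with 1 library left out. They became 3 with no filter, without the trend, with DESeq2 and in 1 fit of all libraries. In X-ray spleen the 2 calls became 1 with no filter or with a mean of at least 5, 4 with DESeq2, 3 with the replicate block and 0 to 5 with 1 library left out. In X-ray thymus the 0 calls became 1 with no filter. The X-ray interaction went from 0 to 1 with a pseudocount of 2, 2 with DESeq2 and 0 to 3 with 1 library left out. The d24 interaction went from 6 to 2 with a pseudocount of 0.1, 1 with edgeR, 2 with DESeq2 and 4 to 6 with 1 library left out. The cause of these changes was not tested. Outside X-ray spleen not every same-numbered pair correlated over 0.1. Apart from the fits with the replicate block, no test used the replicate numbers as pairs. In X-ray thymus the same-numbered correlations were 0.0554, 0.476 and 0.249, and a pairing is not settled there or in X-ray spleen. Outside X-ray spleen the limma fit with the replicate block changed the call of Fcnb in d24 liver (adjusted p = 0.0761) and of no other member. On the recovered reads edgeR called 145 genes and DESeq2 594 in d24 spleen, against 309 by limma, and 11 and 531 in d24 liver, against 72. Values near the worth of 1 read, in thymus and d24 liver, are limited by depth.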
